A study of Homo sapiens with 12 samples.

Results

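TC32 and TC71 are established cell lines from Ewing sarcoma, a tumour of bone and soft tissue in young people that is driven by a fusion of EWSR1 with FLI1 or a related gene. The comparison here is between the untreated cells of the 2 lines: 3 arrays of TC71 and 3 arrays of TC32, all from cells kept for 6 hours in the solvent used as control, and no array of drug-treated cells entered it. These 6 arrays are all the untreated arrays among the 12 of the study, whose other arrays hold the same lines after mithramycin, an inhibitor of transcription that binds GC-rich DNA. Cells of each line were plated in dishes of 10 cm at equal density and left overnight before the solvent was added. The labels call the 3 cultures of a line biological replicates with an array each. Each group is thus 1 line, so a difference between the groups is one between these lines as grown here. All probe sets with a single gene symbol were used, which is 41091 of 54675, and the brightest probe set stood for each of 19775 genes. Values are log2 signals, and a difference is TC71 minus TC32. Errors of differences are standard errors from limma, which moves each gene's spread over the 3 arrays a line toward that of all genes.

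Ewing sarcoma fusions join the activation domain of EWSR1 to the DNA-binding domain of an ETS factor, most often FLI1. The fusion activates genes with repeated GGAA sequences near them and represses others, many of which belong to mesenchymal cells. Cell lines share the fusion, but differ in the other genes they keep on or off, such as those of positional identity, extracellular matrix, antigen presentation and germ cells.

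The lines were far apart. Of the 19775 genes, 10303 (52.1%) were called at an adjusted p under 0.05 by limma with Benjamini-Hochberg adjustment, 5304 (26.8%) higher and 4999 (25.3%) lower in TC71. So small differences also passed, and the groups below are counted by members that were called and at least 2-fold apart: 1541 genes (7.79%) were so in the direction of TC71 and 1129 (5.71%) in that of TC32. A difference of 4-fold or more was called for 515 genes (2.6%) higher and 401 (2.03%) lower in TC71, and one of 8-fold or more for 233 (1.18%) and 195 (0.986%). Line means correlated across all genes at r = 0.933, and the median difference was -0.03. Centring each array on the median level of 24 housekeeping genes moved that median to 0.23. The split of calls went from 5304 higher and 4999 lower to 10300 and 2784. That median level differed by -0.253 between the lines, while the median difference of the same genes was only -0.04. Centring on the spiked hybridization controls gave 5471 and 3173. Small differences, up to about 0.3, therefore have a direction only relative to the array as a whole.

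Arrays of a line correlated at 0.9965 to 0.9976 and arrays of different lines at 0.9424 to 0.9449, so no array stood between the lines. The difference between 3′ and 5′ probe sets of beta-actin, a measure of RNA length, was 0.713 ± 0.0355 (SD, n = 3) in TC32 and 1.45 ± 0.484 (SD, n = 3) in TC71, with p = 0.1 in a two-sided exact permutation test, the smallest p that 3 against 3 allows. For GAPDH it was 0.0733 ± 0.0278 in TC32 and 0.105 ± 0.0218 in TC71 (SD, n = 3 each, exact permutation p = 0.2). The part of RNA length in the results was not tested beyond a fit that takes the beta-actin measure of each array into account, in which 7849 genes were called. No detection calls were used. Array medians ran from 4.38 to 4.4, so a level under these values is treated as dim and a fold against it as rough. As many probe sets lie under an array median as over it. The share of all genes under the medians in both lines was not counted, so list counts under them have no background.

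**Figure D1:**
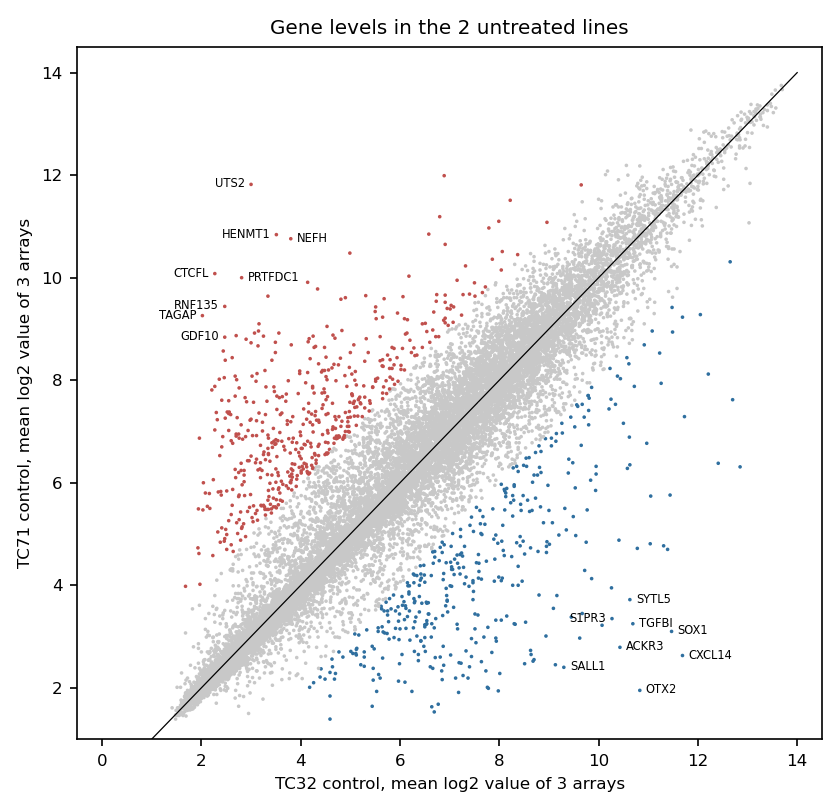
Mean log2 value of each gene over the 3 untreated TC32 arrays (horizontal) and the 3 untreated TC71 arrays (vertical), with red points for genes called and at least 4-fold higher in TC71 and blue points for those at least 4-fold lower. Most genes lie along the line of equality, and the named genes lie at the edges, dim in one line and bright in the other.

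Some genes were bright in one line and dim in the other. Each array holds RNA of a whole culture, so fewer cells with a transcript and less of it in each cell cannot be told apart. In 44 genes the TC71 mean was 8 or more while TC32 lay under the array medians, and 37 genes were the other way round. The gene furthest apart in the direction of TC71 was UTS2, which encodes the vasoactive peptide urotensin 2. UTS2 read 2.92, 3.32 and 2.76 in TC32 and 11.87, 11.81 and 11.77 in TC71, a difference of 8.82 ± 0.13 (adjusted p = 1.64e-09). CTCFL, the germ-cell paralogue of the insulator protein CTCF, read 2.41, 2.11 and 2.3 in TC32 and 10.0, 10.25 and 9.99 in TC71, a difference of 7.81 ± 0.1 (adjusted p = 9.43e-10). For both genes every TC71 array lay far above every TC32 array, although the second UTS2 probe set gave a smaller difference of 2.18.

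HENMT1, a methyltransferase that protects small RNAs of the germ line, read 3.77, 3.37 and 3.4 in TC32 and 10.81, 10.83 and 10.89 in TC71, a difference of 7.33 ± 0.11. PRTFDC1, a relative of the purine salvage enzyme HPRT1, read 2.39, 2.59 and 3.44 in TC32 and 9.95, 10.2 and 9.85 in TC71, a difference of 7.19 ± 0.25. NEFH, the heavy subunit of neurofilaments, read 3.99, 3.21 and 4.19 in TC32 and 10.68, 10.79 and 10.81 in TC71, a difference of 6.96 ± 0.22. In these genes too the groups were apart in every array, as the choice of genes required, with the wider spread on the dim side. The other genes of the 15 largest in this direction were TAGAP (7.24, with 0.55 from its weakest probe set), the ubiquitin ligase RNF135 (6.98), the bone morphogenetic protein relative GDF10 (6.37), the stathmin STMN4 (6.3), FAIM, an inhibitor of death receptor signals (6.16), the protocadherin PCDH8 (6.13), the axon guidance receptor ROBO2 (5.94), the interferon-induced IFI44 (5.91), the vasopressin receptor AVPR1A (5.9, weakest set 0.19) and the lipase PNPLA4 (5.85).

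In the direction of TC32 the gene furthest apart was CXCL14, a chemokine. CXCL14 read 11.74, 11.67 and 11.65 in TC32 and 2.18, 2.39 and 3.31 in TC71, a difference of -9.06 ± 0.25 (adjusted p = 3.11e-08). OTX2, a homeobox factor of the forebrain and midbrain, read 10.86, 10.86 and 10.79 in TC32 and 1.77, 2.06 and 2.01 in TC71, a difference of -8.89 ± 0.08 (adjusted p = 5.02e-10). SOX1, a factor of neural progenitors, read 11.52, 11.46 and 11.42 in TC32 and 2.77, 2.86 and 3.67 in TC71, a difference of -8.37 ± 0.21 (adjusted p = 1.91e-08). All 3 genes were among the brighter genes of TC32 and dim in every TC71 array, though one SOX1 probe set gave only -0.56.

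ACKR3, an atypical receptor that binds the chemokine CXCL12, read 10.53, 10.39 and 10.38 in TC32 and 2.93, 2.86 and 2.58 in TC71, a difference of -7.65 ± 0.1, and its weakest probe set gave -0.37. TGFBI, a matrix protein induced by TGF-beta, read 10.77, 10.63 and 10.67 in TC32 and 3.5, 3.05 and 3.2 in TC71, a difference of -7.44 ± 0.11. TBX5, the T-box factor of heart and forelimb, read 9.94, 10.2 and 10.06 in TC32 and 3.25, 3.0 and 3.42 in TC71, a difference of -6.84 ± 0.11. The remaining genes of the 15 largest were the sphingosine phosphate receptor S1PR3 (-6.92, weakest set -0.45), the vesicle protein SYTL5 (-6.91), the zinc finger factor SALL1 (-6.9), the matrix proteins TNC (-6.69) and FN1 (-6.54), SERPINB5, also called maspin (-6.68, weakest set -0.2), the neural adhesion protein NTM (-6.65, weakest set -0.1), the peptide CCK (-6.54) and the small heat shock protein CRYAB (-6.31).

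**Figure D2:**
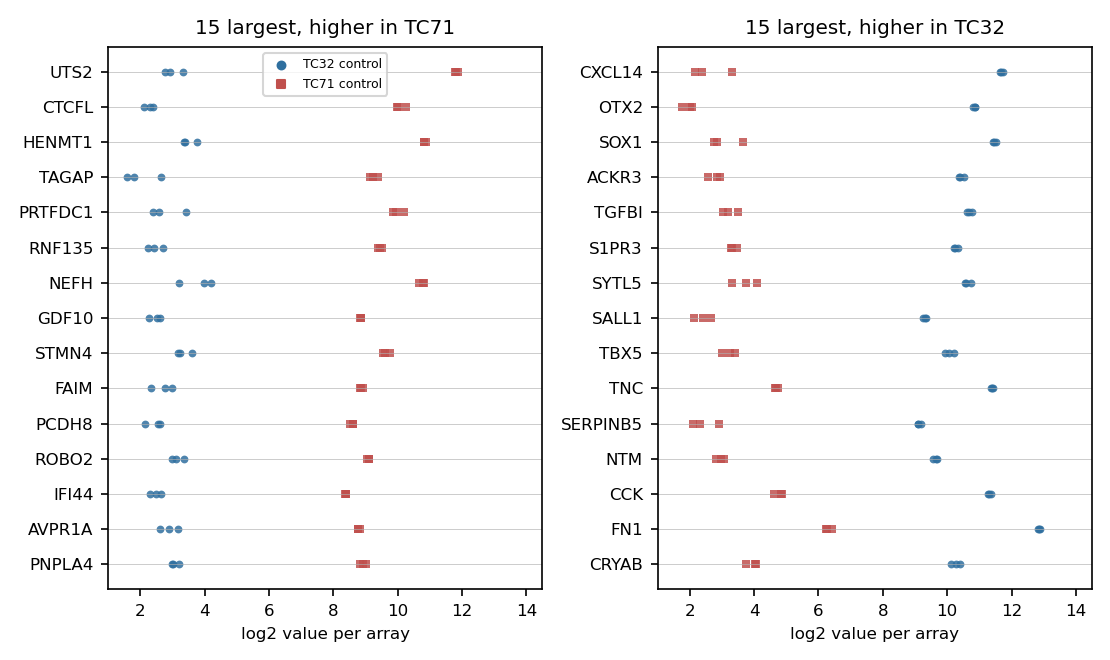
Log2 value in each of the 6 untreated arrays for the 15 genes furthest apart in each direction, with blue circles for TC32 and red squares for TC71. The arrays of a line lie close together. That the lines do not overlap was a condition for choosing these genes. UTS2 sits at 11.77 to 11.87 in TC71 and CXCL14 at 11.65 to 11.74 in TC32.

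Promoter sequence was set beside these differences, since many mammalian promoters are rich in the dinucleotide CG, which can be methylated, and others are poor in it. Promoters from RefSeq (GRCh38.p14) were matched for 15358 genes, as the 250 bases before the start. Among the genes with the largest differences both kinds occurred, and 4 are shown, with every CG in capitals. They are the 250 bases before the start of PRTFDC1 (chr10:24952607-24952856, minus strand, 34 CG), CXCL14 (chr5:135578992-135579241, minus strand, 25 CG), UTS2 (chr1:7853492-7853741, minus strand, 4 CG) and OTX2 (chr14:56810480-56810729, minus strand, 7 CG), each written 5′ to 3′ on the gene's strand.
PRTFDC1: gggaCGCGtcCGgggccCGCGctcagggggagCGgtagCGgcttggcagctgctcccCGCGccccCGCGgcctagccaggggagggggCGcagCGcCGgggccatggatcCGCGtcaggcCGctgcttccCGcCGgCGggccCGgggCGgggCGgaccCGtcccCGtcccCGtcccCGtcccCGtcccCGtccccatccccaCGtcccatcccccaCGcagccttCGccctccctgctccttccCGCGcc
CXCL14: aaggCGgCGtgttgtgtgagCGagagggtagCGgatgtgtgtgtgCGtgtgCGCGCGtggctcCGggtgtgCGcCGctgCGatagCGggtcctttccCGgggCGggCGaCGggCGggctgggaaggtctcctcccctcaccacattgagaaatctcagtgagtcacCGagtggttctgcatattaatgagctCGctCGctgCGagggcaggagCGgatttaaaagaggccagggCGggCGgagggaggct
UTS2: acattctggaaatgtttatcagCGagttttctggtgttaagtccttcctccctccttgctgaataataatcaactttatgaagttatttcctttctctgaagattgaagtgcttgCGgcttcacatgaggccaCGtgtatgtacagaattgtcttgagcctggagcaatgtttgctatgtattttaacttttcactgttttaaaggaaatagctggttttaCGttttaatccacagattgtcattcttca
OTX2: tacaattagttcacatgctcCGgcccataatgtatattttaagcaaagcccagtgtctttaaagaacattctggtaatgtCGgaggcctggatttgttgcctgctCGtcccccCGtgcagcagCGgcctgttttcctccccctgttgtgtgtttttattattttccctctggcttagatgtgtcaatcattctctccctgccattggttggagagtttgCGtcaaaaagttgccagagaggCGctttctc
The first pair is dense in CG and the second sparse, and each pair holds a gene higher in TC71 and one higher in TC32. A ratio of observed to expected CG of at least 0.6 was found in 64.4% of all 15358 promoters and in 86.1% of those of genes with a mean of at least 6. It was found in 68.9% of the 392 promoters of genes at least 4-fold higher in TC71 and in 58.0% of the 319 of genes at least 4-fold lower. At 8-fold or more the shares were 66.9% of 181 and 53.8% of 160. The doubled ETS core GGAAGGAA, searched on both strands, was in 3.06% and 3.45% of the promoters at least 4-fold higher and lower, against 3.01% of all.

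Most of the genes by which Ewing sarcoma is recognised were above the array medians in both lines; ERG, a rarer fusion partner, was under them in both (3.27 in TC32 and 3.31 in TC71), and PAX7 in TC32. EWSR1, which supplies the first part of the fusion, read 9.7, 9.83 and 9.77 in TC32 and 9.76, 9.85 and 9.66 in TC71, a difference of -0.01 ± 0.07 (adjusted p = 0.913). FLI1, the most common partner, read 8.15, 8.22 and 8.05 in TC32 and 8.3, 8.46 and 8.35 in TC71, a difference of 0.23 ± 0.07 (adjusted p = 0.025), and it was not called without TC32 replicate 1 or 3 or TC71 replicate 2 or 3. With the mean of its 6 probe sets the difference of FLI1 was -0.00422. The arrays do not separate the fusion transcript from the normal genes. CD99, the surface protein used to diagnose the tumour, read 12.08, 12.02 and 12.15 in TC32 and 11.08, 10.95 and 10.99 in TC71, a difference of -1.08 ± 0.06. NKX2-2, a homeobox factor that is a fusion target and diagnostic marker, read 9.03, 9.01 and 9.07 in TC32 and 7.14, 7.08 and 7.1 in TC71, a difference of -1.93 ± 0.05. Both were lower in each TC71 array than in any TC32 array, and both were at least 2-fold apart, though CD99 was not after centring on housekeeping genes.

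Of 12 measured diagnostic markers, 4 (33.3%) were at least 2-fold lower in TC71, against 5.71% of all genes. The 4 were NKX2-2, LIPI (-1.42), CAV1 (-1.2) and CD99. A pair (16.7%, against 7.79% of all genes) was at least 2-fold higher. These were STEAP1, a surface metalloreductase, and PAX7, a paired box factor of muscle and neural crest. STEAP1 read 10.54, 10.55 and 10.57 in TC32 and 12.2, 12.19 and 12.18 in TC71, a difference of 1.63 ± 0.05. PAX7 read 4.14, 4.19 and 4.11 in TC32 and 8.82, 8.7 and 8.75 in TC71, a difference of 4.61 ± 0.06, and its weakest probe set gave 0.24. PAX7 thus lay under the array medians in TC32, and STEAP1 was bright in both lines.

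Of 40 measured genes that the fusion is known to activate, 10 were at least 2-fold higher and 7 at least 2-fold lower in TC71, and their median difference was -0.13 against -0.03 for all genes. Among those lower were CCK (-6.54 ± 0.08), a gut and brain peptide, KIT (-5.53 ± 0.11), a receptor tyrosine kinase, ABHD6 (-4.3 ± 0.08), a lipase, and PAPPA (-3.34 ± 0.08), a metalloprotease that frees IGF from its binding proteins. Other probe sets of ABHD6 and PAPPA gave -0.44 and -0.06. Among those higher were NPY1R (2.78 ± 0.05), a receptor of neuropeptide Y, and DKK2 (2.81 ± 0.06, weakest set 0.05), a Wnt modulator. SOX2 read 9.91, 10.02 and 9.97 in TC32 and 9.72, 9.76 and 9.73 in TC71, a difference of -0.23 ± 0.06, and was bright in both lines. IGF1 differed by 0.78 ± 0.06 and its receptor IGF1R by -0.07 ± 0.07 (adjusted p = 0.463).

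Genes of mesenchymal cells, many of which the fusion represses, included bright genes of TC32 that were dim in TC71. Of 34 measured, 15 (44.1%) were at least 2-fold lower in TC71, against 5.71% of all genes. Another 5 (14.7%) were at least 2-fold higher, against 7.79% of all genes. The median difference of the 34 was -0.44. FN1, fibronectin, read 12.89, 12.82 and 12.85 in TC32 and 6.42, 6.28 and 6.22 in TC71, a difference of -6.54 ± 0.07. TNC, tenascin C, read 11.35, 11.39 and 11.42 in TC32 and 4.74, 4.69 and 4.65 in TC71, a difference of -6.69 ± 0.06. CCN2, connective tissue growth factor, read 11.04, 11.08 and 11.01 in TC32 and 4.74, 4.92 and 4.76 in TC71, a difference of -6.24 ± 0.07. All 3 were bright in TC32, and in TC71 TNC and CCN2 lay near the array median while FN1 lay above it. DKK1 (-5.99), ACTA2 (-4.56, weakest set -0.11), IGFBP3 (-3.38) and TGFBR2 (-2.62, weakest set -0.17) were also lower. The 5 that were higher in TC71 were DCN (4.01), LUM (1.83 ± 0.14, weakest set 0.25), TIMP3 (1.55 ± 0.14), COL1A1 (1.19 ± 0.06, another set -0.17) and S100A4 (1.14 ± 0.06). Decorin, the product of DCN, is a small matrix proteoglycan, and DCN read 4.4, 4.17 and 3.84 in TC32 and 8.2, 8.06 and 8.19 in TC71, but another of its probe sets gave -0.11.

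**Figure D3:**
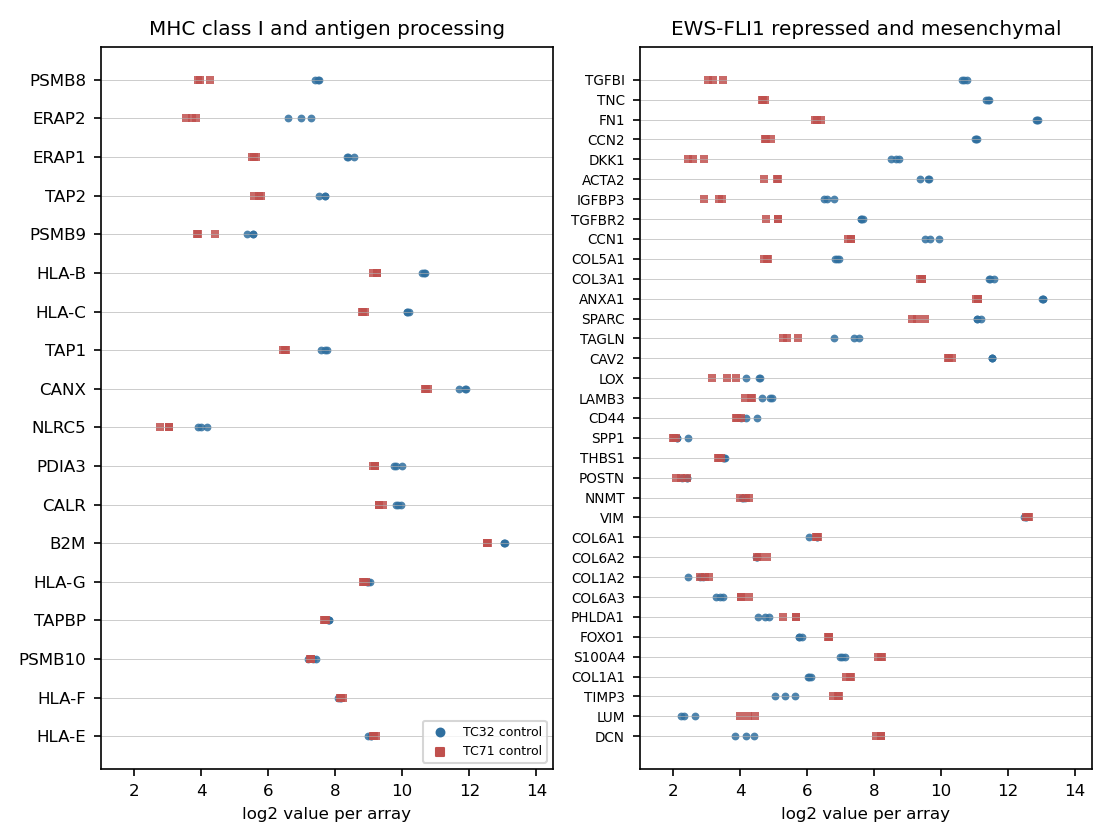
Log2 value in each untreated array for the 18 measured genes of MHC class I presentation (left) and the 34 of the mesenchymal list (right), with blue circles for TC32 and red squares for TC71, ordered by difference. At the top of both panels TC32 lies to the right of TC71 without overlap, and in the class I panel no gene shown was called higher in TC71; HLA-E and HLA-F were so under some other choices of probe sets and centring.

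Collagens and laminins lay in both directions. Of 37 measured, 9 (24.3%) were at least 2-fold lower in TC71, against 5.71% of all genes. Another 5 (13.5%) were at least 2-fold higher, against 7.79% of all genes. The chains of basement membrane collagen COL4A1 (-4.61 ± 0.21) and COL4A2 (-5.25 ± 0.09) were lower together, and so were COL11A1 (-5.9 ± 0.07), COL3A1 (-2.07 ± 0.06, weakest set -0.11) and the laminin LAMA4 (-3.29 ± 0.07, weakest set -0.21). The 5 that were higher were COL21A1 (4.05 ± 0.12), COL4A5 (3.38 ± 0.1, weakest set 0.07), COL9A2 (2.37 ± 0.09, weakest set 0.59), COL5A2 (1.84 ± 0.06) and COL1A1. COL4A5 encodes another basement membrane chain, so members of that family lay in opposite directions. Among integrins, the matrix receptors, ITGB5 was lower (-3.09 ± 0.07) and ITGA4 higher (4.67 ± 0.12) in TC71, and ITGB1 was bright in both lines (-0.25).

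Factors that give cells their position and lineage included some of the largest differences. Of 80 homeobox and T-box genes outside the HOX clusters, 15 (18.8%) were lower by 2-fold or more in TC71, against 5.71% of all genes. Another 10 (12.5%) were higher by as much, against 7.79% of all genes. OTX2 and TBX5 led the first group, followed by DLX1 (-4.21 ± 0.11) and DLX2 (-3.63 ± 0.07), neighbouring genes of forebrain interneurons and skeleton, and PAX3 (-1.79 ± 0.08). In the other direction SATB1, a chromatin organiser, read 2.44, 2.31 and 2.47 in TC32 and 7.71, 7.48 and 7.63 in TC71, a difference of 5.2 ± 0.08, with 0.15 from its weakest set. ISL1, a factor of motor neurons and heart progenitors, read 5.22, 5.15 and 4.98 in TC32 and 7.84, 7.98 and 7.9 in TC71, a difference of 2.79 ± 0.08. PAX3 and PAX7 are close relatives, and PAX3 was brighter in TC32 while PAX7 was brighter in TC71.

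HOX cluster genes differed less. The 28 measured ranged from -2.48 to 0.9, and 4 (14.3%) were at least 2-fold lower in TC71, against 5.71% of all genes. The 4 were HOXB8 (-2.48 ± 0.24, weakest set -0.23), HOXB13 (-1.79), HOXB2 (-1.31) and HOXB3 (-1.04, weakest set -0.17), all of the HOXB cluster. HOXD13, a posterior limb gene and known fusion target, read 8.54, 8.62 and 8.52 in TC32 and 9.36, 9.31 and 9.4 in TC71, a difference of 0.8 ± 0.06. Of 19 SOX genes, 3 (15.8%, against 5.71% of all genes) were at least 2-fold lower, SOX1, SOX11 (-5.05 ± 0.09) and SOX9 (-2.23 ± 0.11). A pair (10.5%, against 7.79% of all genes) was higher by as much, SOX8 (2.0 ± 0.11) and SOX7 (1.79 ± 0.12, weakest set 0.3). SOX9, the cartilage factor, lay near the array medians in TC32, at a mean of 4.64, and was dim in TC71, at 2.41. SOX10, the factor of Schwann cells and melanocytes, differed by -0.05 ± 0.08 (adjusted p = 0.651). Among the proneural and neural crest factors ZIC1 was lower in TC71 (-4.91 ± 0.07, weakest set -0.04), and GATA3 (3.09 ± 0.09) and SNAI2 (2.91 ± 0.12) were higher.

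Neural genes moved in both directions. Of 45 genes of neurons and neuroendocrine granules, 13 (28.9%) were at least 2-fold higher in TC71, against 7.79% of all genes. Another 8 (17.8%) were at least 2-fold lower, against 5.71% of all genes. Beside NEFH, the light neurofilament gene NEFL read 3.65, 4.34 and 3.96 in TC32 and 8.13, 8.1 and 8.16 in TC71, a difference of 4.15 ± 0.15, and STMN4 read 3.6, 3.17 and 3.24 in TC32 and 9.75, 9.54 and 9.62 in TC71, a difference of 6.3 ± 0.12. Both were dim in TC32 and bright in TC71. Lower in TC71 were SYT11 (-2.79, weakest set -0.39), the granule protein SCG2 (-2.33) and ENO2 (-1.87), the neuronal enolase.

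Single neuropeptide genes were far apart. Of 33 peptides and receptors, 5 (15.2%) were at least 2-fold higher in TC71, against 7.79% of all genes. Another 4 (12.1%) were at least 2-fold lower, against 5.71% of all genes. Under the array medians in both lines lay 13, and the median difference was -0.01. CALCB, one of the calcitonin gene-related peptides, read 3.53, 3.71 and 3.24 in TC32 and 8.61, 8.51 and 8.49 in TC71, a difference of 5.04 ± 0.11. The others higher were GAL, galanin (3.61 ± 0.14, weakest set 0.32), POMC (3.38 ± 0.16), NPY1R and NPY5R (1.31 ± 0.13). CCK read 11.37, 11.26 and 11.31 in TC32 and 4.62, 4.87 and 4.83 in TC71, and NTS (-1.78 ± 0.08), NMU (-1.45 ± 0.08) and NPY (-1.13 ± 0.15) were also lower. The arrays thus showed NPY receptors higher and NPY itself lower in TC71. NPY lay near the array medians in TC32, at a mean of 4.84, and was dim in TC71, at 3.71.

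Guidance and adhesion genes were bright in one line and dim in the other in several cases. Of 44 axon guidance genes, 6 were at least 2-fold higher and 11 at least 2-fold lower in TC71. The receptor ROBO2 read 3.11, 3.37 and 2.99 in TC32 and 9.12, 9.12 and 9.06 in TC71, a difference of 5.94 ± 0.09, and its ligand SLIT2 read 5.69, 5.52 and 5.83 in TC32 and 9.62, 9.51 and 9.63 in TC71, a difference of 3.9 ± 0.09. Receptor and ligand were both brighter in TC71. SEMA3C (4.08 ± 0.12, weakest set 0.51) and EPHA3 (3.71 ± 0.07, weakest set 0.06) were higher too, and EFNB2 (-4.6 ± 0.09) and EPHA4 (-3.4 ± 0.08, weakest set -0.18), an ephrin and an ephrin receptor, were lower. Of 35 cadherins and protocadherins, 5 (14.3%) were at least 2-fold higher, against 7.79% of all genes. The 5 were PCDH8, CDH12 (3.74 ± 0.09), CDH8 (3.27 ± 0.1), PCDH9 (1.61 ± 0.14, another set -0.07) and FAT3 (1.3 ± 0.09, weakest set 0.11). At least 2-fold lower were 6 (17.1%), against 5.71% of all genes, led by PCDH7 (-4.3 ± 0.08), PCDH19 (-3.79 ± 0.12) and FAT1 (-3.63 ± 0.07).

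Receptors and ligands of the main signalling families differed by single members. Of 37 receptor tyrosine kinases, 7 (18.9%) were lower by 2-fold or more, against 5.71% of all genes. Higher by as much were 3 (8.11%), close to the 7.79% of all genes. KIT, the receptor of stem cell factor, read 10.5, 10.28 and 10.44 in TC32 and 4.69, 4.86 and 5.1 in TC71, a difference of -5.53 ± 0.11. NTRK2, the receptor of BDNF, read 7.63, 7.78 and 7.93 in TC32 and 1.89, 2.1 and 1.97 in TC71, a difference of -5.79 ± 0.09, and its weakest probe set gave 0.09. FGFR2 (-3.26 ± 0.08, weakest set 0.09), AXL (-2.17 ± 0.16, weakest set -0.11) and DDR2 (-1.64 ± 0.08), a collagen receptor, were also lower. The 3 that were higher were FGFR3 (2.32 ± 0.06, weakest set 0.45), FLT3 (1.86 ± 0.14) and LTK (1.63 ± 0.1). IGF1R, on which Ewing sarcoma cells are known to depend, read 8.55, 8.55 and 8.36 in TC32 and 8.42, 8.42 and 8.41 in TC71 and was not called.

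Of 36 growth factors and IGF binding proteins, 9 were at least 2-fold lower in TC71 and 3 at least 2-fold higher. IGFBP5, which binds IGF1 and IGF2, read 11.12, 11.01 and 11.02 in TC32 and 5.78, 5.82 and 5.64 in TC71, a difference of -5.31 ± 0.07, and its weakest probe set gave -0.57. IGFBP3 read 6.6, 6.8 and 6.51 in TC32 and 3.46, 3.38 and 2.92 in TC71, a difference of -3.38 ± 0.14. FGF13 (-3.74 ± 0.06) and BDNF (-1.94 ± 0.09), the ligand of NTRK2, were lower as well. The 3 that were higher were TGFA (4.02 ± 0.09, weakest set 0.09), a ligand of the EGF receptor, PDGFD (3.06 ± 0.08) and NRG1 (1.02 ± 0.07, another set -0.17).

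Among 46 Wnt ligands, receptors and inhibitors, 6 were lower by 2-fold or more and 5 higher by as much in TC71. The secreted inhibitor DKK1 read 8.74, 8.66 and 8.5 in TC32 and 2.43, 2.6 and 2.91 in TC71, a difference of -5.99 ± 0.12. LGR5, a receptor that strengthens Wnt signals, read 8.06, 7.91 and 8.06 in TC32 and 2.34, 2.19 and 2.31 in TC71, a difference of -5.73 ± 0.07. LEF1, a nuclear effector of the pathway, read 3.23, 3.47 and 3.77 in TC32 and 8.7, 8.8 and 8.73 in TC71, a difference of 5.25 ± 0.12, although another probe set gave -0.15. DKK1 and LGR5 were dim in TC71 and LEF1 was dim in TC32. FRZB (-4.65, weakest set 0.05) and WNT5A (-2.62) were lower, and DKK2, the frizzled receptors FZD7 (2.6 ± 0.06), FZD5 (1.3 ± 0.06) and FZD6 (1.24 ± 0.06) were higher.

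**Figure D4:**
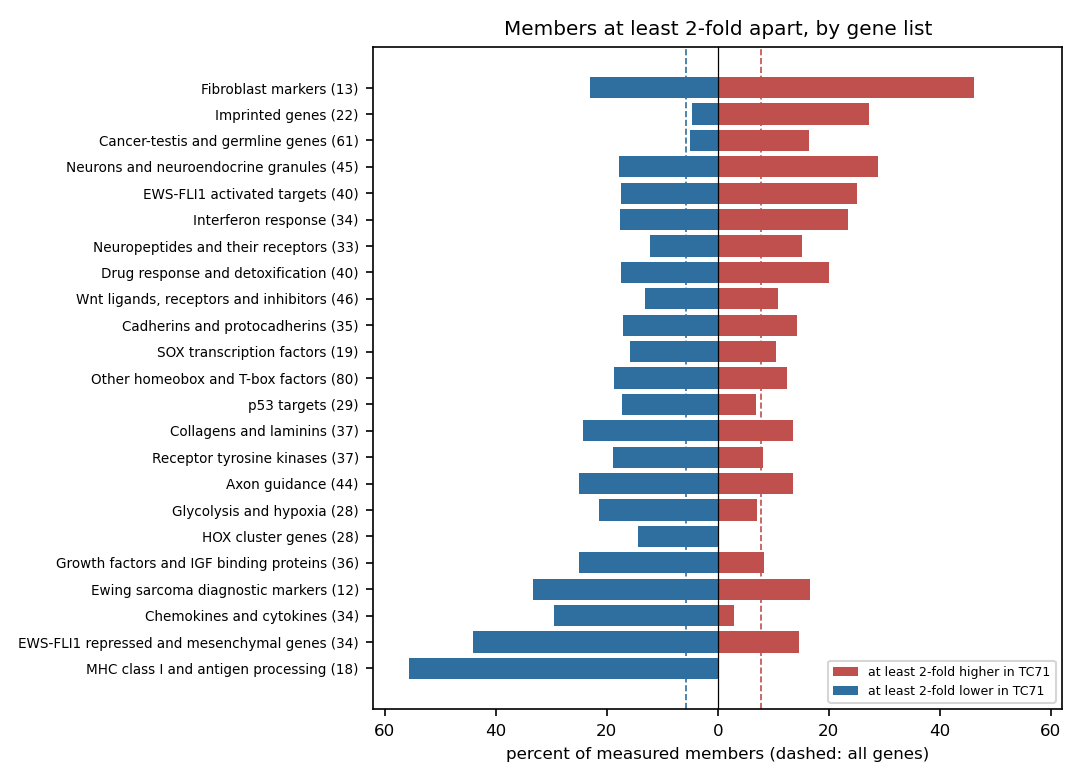
Percent of the measured members of each list plotted that were called and at least 2-fold higher (red, right) or lower (blue, left) in TC71, with the number measured in parentheses and dashed lines at 7.79% and 5.71%, the shares of all genes. The bar to the left is longest for MHC class I genes, followed by mesenchymal genes, and fibroblast markers have the longest bar to the right, followed by neuronal and imprinted genes.

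Several genes of class I antigen presentation were lower in TC71. MHC class I molecules carry peptides that the proteasome makes, the TAP transporter brings into the endoplasmic reticulum and the ERAP peptidases trim. Of 18 measured genes, 10 (55.6%) were at least 2-fold lower in TC71, against 5.71% of all genes, the median difference was -1.09 and the highest was 0.13. PSMB8, a subunit of the immunoproteasome, read 7.4, 7.49 and 7.52 in TC32 and 4.25, 3.97 and 3.92 in TC71, a difference of -3.42 ± 0.09. TAP2 read 7.7, 7.53 and 7.71 in TC32 and 5.58, 5.79 and 5.73 in TC71, a difference of -1.95 ± 0.08, and its partner TAP1 differed by -1.18 ± 0.06. ERAP1 read 8.57, 8.34 and 8.39 in TC32 and 5.57, 5.65 and 5.52 in TC71, a difference of -2.85 ± 0.08. These steps lay lower in every TC71 array than in any TC32 array, with weaker sets of -0.15 for ERAP1 and 0.19 for TAP2. The count of 10 depended on the probe sets: it was 5 with the mean of a gene's sets and 5 without the sets that can read several transcripts or genes, and 6 among members with a mean of at least 6.

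The heavy chain gene HLA-B read 10.64, 10.6 and 10.68 in TC32 and 9.24, 9.14 and 9.24 in TC71, a difference of -1.43 ± 0.06. HLA-C differed by -1.33 ± 0.06, and the light chain B2M by -0.51 ± 0.05. HLA genes are polymorphic and near-identical to each other, so probe sets can read several of them and a line's alleles can change binding. HLA-E (0.13 ± 0.06), HLA-F (0.05 ± 0.06) and HLA-G (-0.12 ± 0.06) were not called, nor was the proteasome subunit PSMB10 (-0.05 ± 0.07) or the chaperone TAPBP (-0.1 ± 0.05). Without the sets that can read several transcripts, HLA-F was called higher in TC71 at 0.76 (limma adjusted p = 0.000237) and HLA-E at 0.3 (limma adjusted p = 0.00435). HLA-F was also called at 0.32 with the mean of its sets, and centring on housekeeping genes gave calls of 0.38 for HLA-E and 0.3 for HLA-F. B2M remained among the brightest genes of both lines, at means of 13.04 in TC32 and 12.54 in TC71. NLRC5, the activator of class I genes, was dim in both lines at means of 4.02 in TC32 and 2.95 in TC71 and differed by -1.07 ± 0.1.

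Interferon response genes, which respond to the same signal as class I genes, lay in both directions. Of 34 measured, 8 (23.5%) were at least 2-fold higher in TC71, against 7.79% of all genes. Another 6 (17.6%) were at least 2-fold lower, against 5.71% of all genes. The median difference was 0.11. TRIM22, an antiviral ubiquitin ligase, read 8.48, 8.51 and 8.55 in TC32 and 2.41, 2.39 and 2.61 in TC71, a difference of -6.04 ± 0.07. MX2 (-3.83 ± 0.1) and GBP1 (-2.61 ± 0.15, weakest set 0.02) were lower too. IFI44 read 2.49, 2.64 and 2.31 in TC32 and 8.39, 8.36 and 8.41 in TC71, a difference of 5.91 ± 0.09, and CGAS, the sensor of cytosolic DNA, read 2.98, 2.73 and 3.56 in TC32 and 6.36, 6.56 and 6.25 in TC71, a difference of 3.3 ± 0.19, with 0.14 from its weakest set. IFIT1 (1.99 ± 0.12) was also higher in TC71, so genes of this response were dim in TC32 in some cases and in TC71 in others.

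Interferon acts through a response element whose core is GAAA followed, after 2 bases, by another GAAA, or the reverse (TTTC, 2 bases, TTTC) on the other strand. A match was in 6 of 15 class I promoters (40.0%) and in 15 of 23 interferon response promoters (65.2%), against 2.47% of all 15358. The promoters of TAP1 (chr6:32853705-32853954, minus strand), B2M (chr15:44711267-44711516, plus strand) and IFI44 (chr1:78649539-78649788, plus strand) are shown because they hold the same letters while TAP1 and B2M were lower and IFI44 was higher in TC71. They are the 250 bases before each start, 5′ to 3′ on the gene's strand, with matches in capitals; TAP1 and B2M hold 2 overlapping matches and IFI44 holds 1.
TAP1: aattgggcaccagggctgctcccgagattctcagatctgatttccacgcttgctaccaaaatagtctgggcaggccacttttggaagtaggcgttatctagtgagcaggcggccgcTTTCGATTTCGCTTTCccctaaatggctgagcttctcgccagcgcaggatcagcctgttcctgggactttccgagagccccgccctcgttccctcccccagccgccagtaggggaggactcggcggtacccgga
B2M: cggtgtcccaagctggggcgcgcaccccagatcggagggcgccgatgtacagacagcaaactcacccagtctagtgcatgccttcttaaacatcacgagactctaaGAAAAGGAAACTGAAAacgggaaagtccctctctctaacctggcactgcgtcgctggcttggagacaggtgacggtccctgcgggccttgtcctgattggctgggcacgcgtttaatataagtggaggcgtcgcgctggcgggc
IFI44: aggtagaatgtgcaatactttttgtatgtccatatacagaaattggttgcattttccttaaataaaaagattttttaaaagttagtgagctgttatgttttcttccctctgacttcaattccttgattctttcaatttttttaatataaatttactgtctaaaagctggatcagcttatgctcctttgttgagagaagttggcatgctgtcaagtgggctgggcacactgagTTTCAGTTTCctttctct

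Chemokines and cytokines included several genes that were bright in TC32 alone. Of 34 measured, 10 (29.4%) were lower by 2-fold or more, against 5.71% of all genes. Only 1 (2.94%, against 7.79% of all genes) was higher by as much, IL13RA1 (2.17 ± 0.11). Under the array medians in both lines lay 16. CXCR4, the receptor that guides cells toward CXCL12, read 9.11, 9.0 and 9.35 in TC32 and 3.9, 3.88 and 3.62 in TC71, a difference of -5.36 ± 0.11. TNFSF13B, a survival factor of B cells, read 10.81, 10.66 and 10.86 in TC32 and 4.64, 4.71 and 4.82 in TC71, a difference of -6.05 ± 0.08. Together with ACKR3, described above, both known receptors of CXCL12 were bright in TC32 and dim in TC71. CXCL12 itself differed by -1.68 ± 0.15 between means of 5.75 in TC32 and 4.07 in TC71. IL7R (-3.61 ± 0.11) and CXCL8 (-3.53 ± 0.16) were lower as well.

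Germline genes were dim for the most part and bright in a few cases. Of 61 measured cancer-testis and germline genes, 40 lay under the array medians in both lines. At least 2-fold higher in TC71 were 10 (16.4%), against 7.79% of all genes. At least 2-fold lower were 3 (4.92%), close to the 5.71% of all genes. MAGEA1, a tumour antigen, read 3.02, 3.02 and 2.96 in TC32 and 8.72, 8.75 and 8.71 in TC71, a difference of 5.73 ± 0.05. TEX15, a meiosis gene, read 3.91, 3.59 and 3.75 in TC32 and 7.96, 8.03 and 7.98 in TC71, a difference of 4.23 ± 0.09. PRAME, an antigen known from melanoma, read 7.58, 7.46 and 7.49 in TC32 and 9.56, 9.64 and 9.72 in TC71, a difference of 2.13 ± 0.07. PRAME was thus bright in both lines, and the others were dim in TC32. MAGEA6 (3.2 ± 0.14) is near-identical to other MAGEA genes, so its signal cannot be assigned to 1 member. The 3 that were lower were SSX1 (-1.96 ± 0.07, weakest set -0.15), SSX3 (-1.1 ± 0.08) and LIPI.

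Imprinted genes are expressed from the copy of 1 parent. Of 22 measured, 6 (27.3%) were at least 2-fold higher in TC71, against 7.79% of all genes. MEST alone (4.55%) was at least 2-fold lower, close to the 5.71% of all genes. PLAGL1, a zinc finger factor that restrains growth, read 3.08, 3.16 and 3.21 in TC32 and 9.01, 8.99 and 8.87 in TC71, a difference of 5.81 ± 0.07. GRB10, an adaptor that dampens insulin signals, read 4.44, 4.32 and 4.6 in TC32 and 7.4, 7.56 and 7.59 in TC71, a difference of 3.06 ± 0.09. MEST read 8.16, 8.02 and 8.02 in TC32 and 4.27, 4.01 and 4.14 in TC71, a difference of -3.92 ± 0.08. PLAGL1 was dim in every TC32 array, and MEST was dim in every TC71 array. NDN (2.64 ± 0.06), ZDBF2 (3.44 ± 0.08), NAP1L5 (1.72 ± 0.11) and PEG10 (1.07 ± 0.06, weakest set 0.32) were the others higher.

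Cell cycle genes lay close together and single regulators did not. The 25 genes of the G1/S transition and DNA replication ranged from -0.71 to 0.95, and the 29 of G2/M and mitosis from -0.93 to 0.84, so none was 2-fold apart at the deposited centring. MYC read 10.06, 10.05 and 10.04 in TC32 and 11.25, 11.37 and 11.43 in TC71, a difference of 1.3 ± 0.06. RB1, the brake on S phase entry, read 7.97, 8.16 and 7.99 in TC32 and 9.15, 9.22 and 9.12 in TC71, a difference of 1.12 ± 0.07, but its second probe set gave 0.01. MYCN differed by -0.03 ± 0.09 (adjusted p = 0.785), but the lowest of its 10 probe sets gave -2.07. With the mean of its sets MYCN was called lower in TC71, at -0.23 (limma adjusted p = 0.00389). CDKN2A (-0.17 ± 0.09, adjusted p = 0.146) and CDKN2B (-0.06 ± 0.07, adjusted p = 0.507), inhibitors of cyclin D kinases that lie beside each other, were close to or under the array medians in both lines and not called. Near them MTAP, a purine salvage enzyme, read 3.58, 3.35 and 3.54 in TC32 and 5.66, 5.56 and 5.36 in TC71, a difference of 2.04 ± 0.1, with -0.13 from its weakest set.

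Of 29 targets of p53, 5 (17.2%) were lower by 2-fold or more in TC71, against 5.71% of all genes. Higher by as much were 2 (6.9%), close to the 7.79% of all genes. PLK2, a kinase, read 6.3, 6.44 and 6.37 in TC32 and 2.63, 2.55 and 2.4 in TC71, a difference of -3.84 ± 0.08. CCNG1 (-2.12 ± 0.06), GADD45A (-1.88 ± 0.06), FAS (-1.88 ± 0.06, weakest set -0.46) and SESN2 (-1.22 ± 0.06) were the others lower. TP53I3, an oxidoreductase, read 5.51, 5.31 and 5.7 in TC32 and 7.95, 7.98 and 8.0 in TC71, a difference of 2.47 ± 0.09, and SESN1 read 5.16, 5.2 and 5.02 in TC32 and 7.46, 7.45 and 7.52 in TC71, a difference of 2.35 ± 0.06. CDKN1A, the p21 inhibitor, differed by -0.9 ± 0.07, and MDM2 by 0.23 ± 0.07 (adjusted p = 0.031), a call that was lost without TC32 replicate 1 or 3 or TC71 replicate 1 or 2. Members of the same list thus lay in opposite directions, with MDM2 close to equal.

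Cohesin holds sister chromatids together and shapes chromatin loops. STAG2, a subunit that some Ewing sarcomas lose, read 8.17, 8.1 and 8.19 in TC32 and 9.61, 9.68 and 9.54 in TC71, a difference of 1.46 ± 0.06 (adjusted p = 2.77e-07), and the weakest of its 3 probe sets gave 1.26. It was higher in every TC71 array. The acetyltransferase ESCO1 (1.02 ± 0.06) was higher as well, and the core subunit RAD21 differed by 0.35 ± 0.07.

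Detoxifying enzymes were among the brightest genes that differed. Of 40 drug response genes, 8 were at least 2-fold higher and 7 at least 2-fold lower in TC71. ALDH1A1, an aldehyde dehydrogenase, read 12.7, 12.78 and 12.61 in TC32 and 7.41, 7.69 and 7.75 in TC71, a difference of -5.08 ± 0.1. CES1, a carboxylesterase that activates prodrugs, read 12.46, 12.41 and 12.38 in TC32 and 6.44, 6.23 and 6.48 in TC71, a difference of -6.03 ± 0.08. DPYD, which breaks down fluorouracil, read 3.43, 3.45 and 3.02 in TC32 and 7.84, 7.96 and 7.8 in TC71, a difference of 4.57 ± 0.12. ALDH1A1 and CES1 were bright in TC32 and DPYD in TC71. AKR1C3 (-4.38 ± 0.08) was lower, and CYP1B1 (3.84 ± 0.06, weakest set 0.12) and GSTM3 (3.29 ± 0.06) were higher. SLFN11, a marker of response to DNA damaging drugs, differed by -0.29 ± 0.06, and MGMT, which removes alkyl groups from DNA, by 0.28 ± 0.06; both calls were lost in the fit with the beta-actin measure, and that of SLFN11 also under both other centrings.

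Of 28 glycolysis and hypoxia genes, 6 (21.4%) were lower by 2-fold or more in TC71, against 5.71% of all genes. Higher by as much were 2 (7.14%), close to the 7.79% of all genes. ADM, adrenomedullin, read 9.58, 9.46 and 9.41 in TC32 and 5.49, 5.18 and 5.36 in TC71, a difference of -4.14 ± 0.09. HK1, a hexokinase, read 10.34, 10.34 and 10.35 in TC32 and 7.6, 7.51 and 7.48 in TC71, a difference of -2.81 ± 0.06. The glucose transporters SLC2A3 (-2.11 ± 0.07) and SLC2A1 (-1.28 ± 0.1, weakest set -0.23), CA12 (-3.9 ± 0.12, weakest set -0.19) and ENO2 (-1.87 ± 0.06) were the others lower, and PFKM (1.4 ± 0.05) and ANKRD37 (1.33 ± 0.06, another set -0.02) were higher. The 20 measured genes of oxidative phosphorylation ranged from -0.75 to 1.53 with a median of 0.26, and NDUFB5 (1.53 ± 0.06) was the highest.

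Markers of other cell types lay under the array medians in both lines in many cases. Without detection calls or the share of all genes, this does not show that such transcripts were absent. Of 13 blood cell markers 6 did so, as did 8 of 12 endothelial, 7 of 16 epithelial and 10 of 17 muscle markers. The muscle marker furthest apart was PAX3, described above, and the brightest epithelial marker KRT18 (-0.64 ± 0.06), at means of 9.8 in TC32 and 9.16 in TC71. Of 13 fibroblast markers 4 lay under the medians in both lines, 6 (46.2%) were at least 2-fold higher in TC71, against 7.79% of all genes, and 3 (23.1%) at least 2-fold lower, against 5.71%. Without the sets that can read several transcripts 2 were higher. The 6 were TWIST1 (2.3 ± 0.05), a factor of mesenchymal cells, FAP (2.05 ± 0.1), a protease of activated fibroblasts, and the mesenchymal genes DCN, LUM, COL1A1 and S100A4 given above. The 3 lower were TWIST2 (-4.01 ± 0.13), the surface protein THY1 (-2.24 ± 0.07) and COL3A1. The part of these markers in the mesenchymal and collagen results, with which they share genes, was not tested.

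Some stretches of neighbouring genes lay together on one side of 0. Genes with a mean of at least 6 were put in chromosomal order by the RefSeq table, and the median difference was taken over 25 neighbours at a time. Over 7936 such windows the medians ran from -1.58 to 1.38, with 0.03 in the middle and -0.51 and 0.71 at the 5th and 95th percentiles. These windows are a description, with no test. Of the 8497 genes in order, 41.2% were called higher and 35.1% lower in TC71.

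The highest window ran from B3GLCT to MTRF1, with a median of 1.38. In it 24 genes were called higher in TC71, among them RFC3 (0.95 ± 0.08), PDS5B (0.81 ± 0.06) and RFXAP (2.18 ± 0.1), and the cation channel gene TRPC4 was lower (-2.15 ± 0.07). A window on the same chromosome from AKAP11 to KPNA3 had a median of 1.12, with 22 genes called higher, RB1 among them, and SLC25A30 (-0.96 ± 0.06), LCP1 (-0.58 ± 0.08) and DNAJC15 (-0.32 ± 0.06) lower. A window before them from PSPC1 to MTIF3 had a median of 0.99. From PSPC1 to KPNA3, which spans all 3, 83 of 89 genes were called higher and 5 lower, with a median of 0.94 against 0.58 for the whole chromosome. The other windows among the highest ran from ZNF718 to TNIP2 (1.08, 24 called higher), which holds FGFR3, and from DGLUCY to VRK1 (1.05, 25 called higher).

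The 2 lowest windows lay on 1 chromosome. One from EOLA2 to LAGE3 had a median of -1.58, with 23 genes called lower in TC71 and PNMA6A (1.5 ± 0.11) and ARHGAP4 (1.41 ± 0.15) higher. One from SLC25A5 to SLC25A14 had a median of -1.5, with 24 genes called lower, and the gene that was higher there was STAG2 (1.46 ± 0.06). XIAP, which lies beside STAG2, read 9.49, 9.64 and 9.42 in TC32 and 8.56, 8.57 and 8.48 in TC71, a difference of -0.98 ± 0.07. STAG2 was thus higher in TC71 amid neighbours that were lower. From SLC25A5 to LAGE3, 68 of 74 genes were called lower and 4 higher, with a median of -1.45 against -0.26 for the whole chromosome. A window from ARMCX5 to WDR44 on the same chromosome had a median of -0.82, and elsewhere those from PJA2 to LYRM7 and from TSC1 to GPSM1 had medians of -1.22 and -0.92. Without the filter on dim genes, windows of 25 genes around the same 10 centre genes also take in dim neighbours, so they cover shorter stretches. Their medians were all closer to 0. Examples were -0.13 around BCAP31, -0.96 around C1GALT1C1, 0.85 around TRPC4 and 0.24 around ESD. These are the centres of the windows that begin at EOLA2, SLC25A5, B3GLCT and AKAP11. With windows of 41 genes the one centred between PJA2 and LYRM7 had a median of -0.45.

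**Figure D5:**
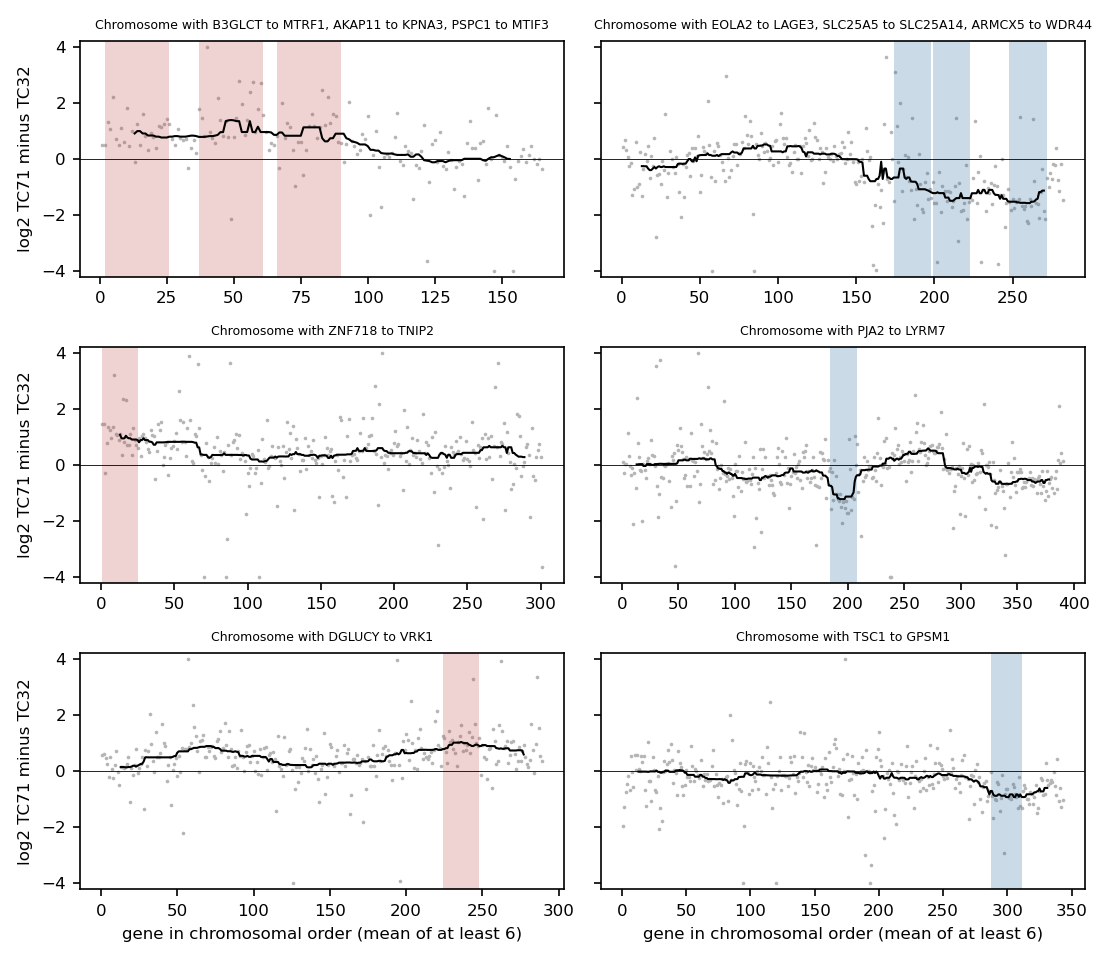
Difference of each gene with a mean of at least 6 (grey points, cut at 4 and -4) in chromosomal order, for the 6 chromosomes that hold the 10 named windows, with the median over 25 neighbours as a black line and the windows shaded red (higher in TC71) or blue (lower). The running median stays above 0 from PSPC1 to KPNA3 and below 0 from SLC25A5 to LAGE3.

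Closer together, 5 short runs of genes were far apart. In each of them, 3 neighbouring measured genes were all at least 4-fold apart in the same direction. TAGAP, FNDC1-AS1 (3.28 ± 0.17) and FNDC1 (4.97 ± 0.07) formed one, PPM1H (2.94 ± 0.12, weakest set 0.15), AVPR1A and DPY19L2 (4.2 ± 0.1) another, and CCNA1 (3.59 ± 0.13), SERTM1 (2.26 ± 0.18) and RFXAP a further one, all higher in TC71. EMB (3.15 ± 0.08, weakest set 0.27), PARP8 (2.35 ± 0.19) and ISL1 were also higher together. The run that was lower in TC71 held PKIB (-5.43 ± 0.07), FABP7 (-5.93 ± 0.2, weakest set -0.06), a fatty acid binding protein of radial glia, and SMPDL3A (-2.98 ± 0.06, weakest set -0.1). FNDC1-AS1 overlaps its partner gene, so their signals may not be separate.

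Of 24 measured housekeeping genes, 10 (41.7%) were called lower in TC71, against 25.3% of all genes. Called higher were 6 of the 24, close to the 26.8% of all genes. The 24 ranged from -1.28 (REEP5) to 0.89 (TBP). The 21 measured ribosomal protein genes ranged from -0.39 to 0.15. The genes closest to 0 with means of at least 9 in both lines included RPL30 (0.0 ± 0.05, adjusted p = 0.998), SRP14 (0.0 ± 0.05), a signal recognition particle protein, the splicing factor SRSF7 (-0.01 ± 0.05), FAU (-0.02 ± 0.05), the ubiquitin ligase UBE3A (0.02 ± 0.05), the proteasome subunit PSMA2 (0.04 ± 0.05) and the chromatin protein HMGN2 (-0.05 ± 0.05). SP1, a factor that binds GC-rich promoters, read 8.57, 8.71 and 8.77 in TC32 and 8.79, 8.73 and 8.81 in TC71, a difference of 0.1 ± 0.07 (adjusted p = 0.28). None of the genes from RPL30 to SP1 named here was called with its brightest probe set at the deposited centring. SRSF7 was called lower in TC71 without the sets that can read several transcripts (-0.43, limma adjusted p = 0.00363). It was also called with the mean of its sets (-0.22, limma adjusted p = 0.00796). EIF1 was among the closest to 0 by its brightest set, but 6 of its 7 sets were called lower, down to -1.14.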

How the data were processed

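RNA of the 6 untreated cultures was measured on Affymetrix HG-U133 Plus 2 arrays, 1 array a culture. The deposited values are log2 signals from RMA (background correction, quantile normalization and summary of probes), per the submitters' processing notes; its settings are not stated there. Probe sets were named from the platform annotation: of 54675, 41091 have 1 gene symbol, 1801 several and 11721 none, 62 are controls, and 41037 matched RefSeq. The brightest probe set, by its mean over the 6 arrays, stood for each of 19775 genes. Differences were tested with limma 3.58.1 in R 4.3.3 (lmFit, eBayes), with Benjamini-Hochberg adjustment over all genes and a threshold of 0.05, after a test on simulated data. The p-values test the difference of the lines against the spread between 3 cultures of a line, which limma moves toward that of all genes. The number of arrays limits the precision. Genes were named by a rule. It took the 15 largest called differences each way among genes whose lines did not overlap. Their mean was at least 7 in the brighter line. It also took up to 6 called members of each list with a mean of at least 6, fixed genes and window ends. Runs of neighbours and the 10 genes closest to 0 were named too. Members of counts of 5 or fewer, the class I genes without a call, NPY, CXCL12, NLRC5, TAP1, SLC2A1, ERG, FAP, REEP5, TBP and the exceptions within windows were added after their values were seen. The gene lists and genes were chosen with earlier results of these data known, from common knowledge of the pathways. Promoters are from RefSeq (GRCh38.p14), and motifs were counted on both strands. Same-numbered arrays of the lines had deviations that correlated at 0.0822, 0.225 and 0.192. Alternatives are given under the dependence on processing. Drug-treated arrays were used only in the alternative fit of all 12. Some genes are not analysed here.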

Additional observations from a re-analysis of the deposited data

How the results depend on the processing

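The 10303 calls became 9465 to 10089 when 1 array was left out, and 1931 (1096 higher and 835 lower in TC71) when tested against a change of 1 on the log2 scale. Calls were 10206 with all 12 arrays in the fit, 10333 with the mean of probe sets, 8165 without sets that can read several transcripts, 10247 after quantile normalization again and 10469 with a trended robust prior. Centring on housekeeping genes gave 10300 higher and 2784 lower, 78.7% of calls higher against 51.5%, centring on hybridization controls gave 3173 lower, and genes with a mean of at least 6 gave 3267 lower of fewer genes tested. No paired design is stated, and the replicate block gave 10306 calls (5281 higher, 5025 lower) in place of 10303; same-numbered arrays correlated best with each other in each of 3 numbers, which is a hint from the data only.

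Counts of members at least 2-fold apart moved by over 1.5 times in 49 of 704 cases, in none of them by leaving out 1 array. With only the genes whose mean was 6 or more, fewer by construction, the counts higher in TC71 were 2 for collagens and laminins, 3 for homeobox and T-box genes, 0 for SOX genes, 6 for neuronal genes, 3 for neuropeptides, 1 for cadherins, 1 for receptor tyrosine kinases, 3 for interferon response, 0 for chemokines, 2 for germline genes, 5 for drug response and 1 for glycolysis. The counts lower were 3 for collagens and laminins, 1 for SOX genes, 4 for neuronal genes, 1 for neuropeptides, 6 for axon guidance, 4 for receptor tyrosine kinases, 5 for growth factors, 3 for Wnt genes, 6 for MHC class I, 0 for interferon response, 5 for chemokines and 3 for p53 targets. Without probe sets that can read several transcripts, the counts higher were 1 for mesenchymal genes, 2 for fibroblast markers, 2 for collagens and laminins, 1 for SOX genes, 1 for receptor tyrosine kinases, 2 for Wnt genes, 5 for interferon response, 5 for germline genes, 0 for p53 targets, 5 for drug response and 1 for glycolysis. The counts lower were then 1 for SOX genes, 3 for receptor tyrosine kinases, 5 for MHC class I, 1 for germline genes, 2 for p53 targets and 3 for drug response. With the mean of probe sets, 8 neuronal genes and 3 cadherins were higher, and 7 axon guidance and 5 MHC class I genes were lower. Centring on housekeeping genes gave 16 homeobox genes and 7 growth factors higher, and 2 diagnostic markers and 3 interferon response genes lower.

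Of the genes given with values, 224 kept their call or lack of one in every alternative that measured them. Those called kept direction too. A change of sign in a gene called in neither fit was not counted, here or in the turns given next. Direction turned with housekeeping centring for EWSR1 (0.24), FAU (0.24), HMGN2 (0.21), IGF1R (0.19), ITGB1 (0.00387), PSMB10 (0.21), SOX2 (0.02), SRP14 (0.25), SRSF7 (0.25) and TAPBP (0.15), with the mean of probe sets for FLI1 (-0.00422), and without sets that can read several transcripts for FGFR2 (0.09) and IDI1 (-0.3). CGAS (0.14), COL4A5 (0.07), EPHA3 (0.06), LUM (0.25) and SLC2A1 (-0.23) lost their calls in that last setting. Calls were lost for SLFN11 with housekeeping centring (-0.04), hybridization control centring (-0.2) and the beta-actin measure (-0.18), for DNAJC15 with the first pair (-0.06 and -0.23), for SOX2 (-0.14 and -0.21) and ITGB1 (-0.16 and -0.15) with the second pair, for MGMT with the beta-actin measure (0.24), for MDM2 with that measure (0.16) and all 12 arrays (0.23) and for FLI1 with all 12 arrays (0.23). Calls were gained with the mean of probe sets for HLA-F (0.32), MYCN (-0.23), SRSF7 (-0.22) and TAPBP (-0.2). Without sets that can read several transcripts they were gained for HLA-E (0.3), HLA-F (0.76) and SRSF7 (-0.43). The cause of these changes was not tested. No signal over background was available, so values under the array medians of 4.38 to 4.4 limit how firmly a fold can be stated.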

Other observations

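Further groups held large differences in single genes. Among 36 ligands, receptors and antagonists of TGF-beta and BMP signalling, which ranged from -2.62 to 6.37, GDF10 was followed by ACVR2A (1.83 ± 0.06), an activin receptor, BMP2 (1.74 ± 0.08) and the inhibitor SMAD7 (1.6 ± 0.06), all higher in TC71, while TGFBR2 and BMPR1B (-1.89 ± 0.08) were lower. Among cholesterol synthesis genes, SQLE (1.72 ± 0.07), HMGCS1 (1.47 ± 0.1), INSIG1 (1.26 ± 0.07) and IDI1 (1.18 ± 0.07, another set -0.3) were higher and SC5D (-1.4 ± 0.12, weakest set -0.36) and NSDHL (-1.42 ± 0.05) lower, and NSDHL lies within the window from EOLA2 to LAGE3.

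Death receptors lay in opposite directions. TNFRSF10A, a receptor of TRAIL, read 3.53, 3.37 and 3.87 in TC32 and 7.36, 7.38 and 7.24 in TC71, a difference of 3.74 ± 0.12, and the decoy receptor TNFRSF10D differed by 1.91 ± 0.06 (weakest set 0.23), whereas FAS was lower. PMAIP1, the NOXA protein that opposes BCL2 relatives, differed by -1.5 ± 0.06. Ion channel genes were bright in single lines, with KCNQ5 (4.47 ± 0.1, weakest set 0.26) and CACNA2D1 (3.47 ± 0.09, weakest set 0.03) higher in TC71 and KCNS3 (-3.28 ± 0.09) lower. MAML2, a coactivator of Notch, read 7.29, 7.36 and 7.05 in TC32 and 2.56, 2.47 and 2.41 in TC71, a difference of -4.75 ± 0.09, and the Notch ligand JAG2 differed by 1.7 ± 0.08. The class II genes HLA-DPA1 (3.33 ± 0.18, weakest set 0.42) and HLA-DPB1 (-2.66 ± 0.1, weakest set -0.21), which encode the chains of 1 molecule, differed in opposite directions, and as with class I, alleles can change binding.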
